A study of Mus musculus with 8 samples.

Results

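The amino acid transporter genes of 7 solute carrier families were examined in RNA from whole mouse hearts. A gene belonged to the set if its symbol placed it in the Slc1, Slc3, Slc6, Slc7, Slc36, Slc38 or Slc43 family, and the creatine transporter of the Slc6 family was left out by that rule. This gave 44 of the 17911 genes of the deposited table: 6 of Slc1, 1 of Slc3, 10 of Slc6, 11 of Slc7, 3 of Slc36, 10 of Slc38 and 3 of Slc43. The mouse annotation of the same build holds 60 protein-coding genes under these names. The other 16 have no row in the deposited table, where the lowest gene had 81 reads over the 8 hearts. The hearts came from 8 wild-type mice labelled C57Bl6/J wt, 4 female and 4 male, untreated as far as the labels say and given the same batch label. The mice were aged 4 weeks by the design text, while the protocol gives 4 to 6. Single hearts were homogenized in Trizol, and the protocol names a kit for small RNA while the molecule is given as total RNA. The comparison the labels set up is that of female with male hearts. Nothing in the labels says that hearts of a sex came from separate litters, so p-values measure the spread between these 8 hearts.

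Amino acids cross the plasma membrane and the lysosomal membrane on carriers that differ in the side chains they accept and in the ions that drive them. Slc1 carriers move glutamate or exchange small neutral amino acids with sodium. Slc6 carriers use sodium and chloride and include those of taurine, glycine, GABA and the monoamines. Slc7 proteins carry cationic amino acids, or act as light chains that need the heavy chain encoded by Slc3a2 to reach the membrane. Slc36 carriers are driven by protons, Slc38 carriers take up glutamine and other neutral amino acids with sodium, and Slc43 holds carriers of large neutral amino acids and a nucleobase carrier. In heart muscle, taurine is among the most abundant free amino acids, and glutamate and glutamine feed the citric acid cycle.

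Values are normalized read counts, the reads of a gene in a heart divided by the size factor of that heart. Reads assigned to genes summed to between 51699331 and 75742388 per heart. In M reads (1e6 reads) the mean was 61.4 ± 6.81 for females and 68.9 ± 9.60 for males (SD over 4 hearts). Heart muscle markers were abundant in every heart: Myh6 ran from 2025656 to 2448514 and Tnnt2 from 452371 to 525049. Whole hearts also hold other cells, and in such bulk RNA fewer cells of a type and less RNA per cell cannot be told apart. Summed markers of endothelium (46619 to 54344), fibroblasts (60332 to 72996) and smooth muscle and pericytes (47363 to 57222) overlapped between the sexes. So did those of platelets (694 to 1259), nerve and Schwann cells (1380 to 1798), red cells (12268 to 21452), thymus and T cells (60.9 to 201) and fat (866 to 4335). The 5 macrophage markers summed to 8450 to 9997 in females and 10711 to 12979 in males, without overlap, and 2 of the 5 were lower in females in the limma fit described below. Single markers of skeletal muscle (Actn3, 40.5 to 80.1) and liver (Ttr, 34.1 to 106) stayed low. The 2 lung markers summed to between 12.1 and 1268, the highest value being that of male replicate 3. A heart muscle marker, Ryr2, was the 1 of 7 called higher in females, while the summed markers of that list overlapped.

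Levels of different genes were compared as normalized count per kilobase of merged exons. On that scale the 44 genes spanned from 1.07 ± 0.286 for Slc7a11, the light chain of the cystine carrier, to 1505 ± 157 for Slc38a2 (SD, n = 8 hearts). Expression was concentrated in few genes: the 5 highest held 57.1% of the summed level per kilobase and the 10 highest 81.9%. The Slc38 family held 45.0% of that sum, followed by Slc43 (12.4%), Slc7 (10.1%), Slc6 (9.96%), Slc36 (8.98%), Slc3 (6.80%) and Slc1 (6.79%). The order was Slc38a2, Slc38a3, Slc43a3, Slc38a10, Slc6a6 and Slc3a2, and it was the same when the length of the longest transcript was used. Neighbours among the first 4 did not separate: Slc38a2 was above Slc38a3 in 7 of 8 hearts, Slc38a3 above Slc43a3 in 6 and Slc43a3 above Slc38a10 in 4. Slc38a10 lay above Slc6a6, and Slc6a6 above Slc3a2, in 8 of 8 hearts and without overlap. By mean normalized count, 15 members had at least 1000 and 14 had under 100.

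**Figure D1:**
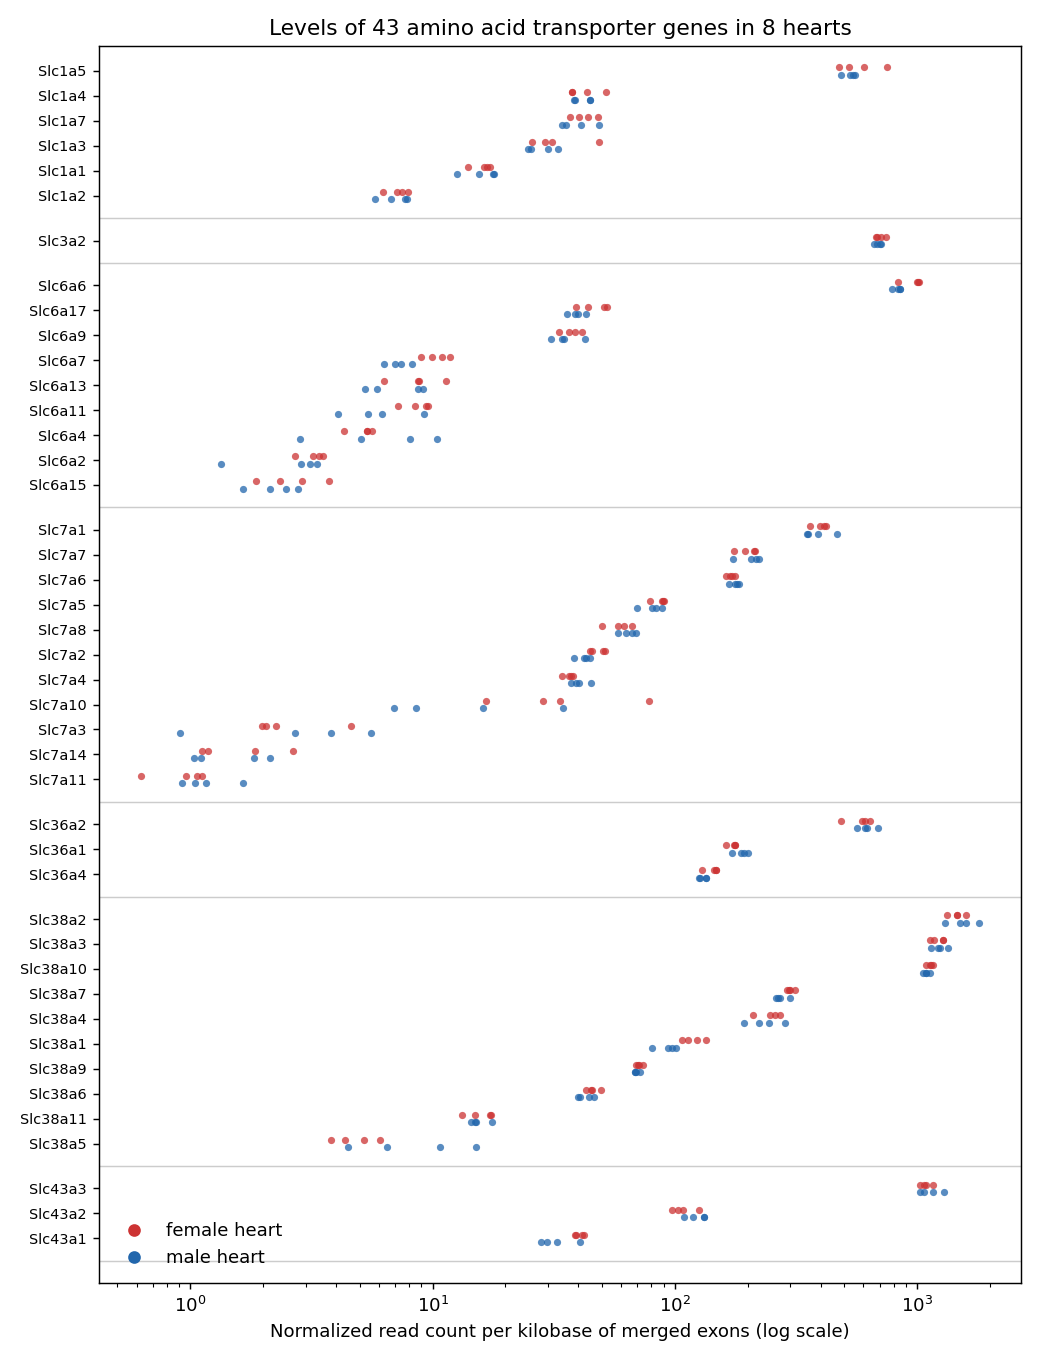
Each point is the normalized read count per kilobase of merged exons (log scale) of 1 gene in 1 heart for 43 genes, red for female and blue for male, with genes grouped by family and ordered by mean. Slc38a2, Slc38a3, Slc38a10 and Slc43a3 stand above 1000 in all 8 hearts, 1 gene leads each of Slc1, Slc6 and Slc43, and the sexes lie close together for most genes.

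The Slc38 family supplied the highest members. Slc38a2 encodes SNAT2, a sodium-coupled carrier of small neutral amino acids known to be induced when amino acids are scarce. It lies on chromosome 15 (96687392 to 96699730, minus strand, mm10). Its normalized counts were 14015, 12876, 11750 and 12950 in female replicates 1 to 4 and 14085, 15866, 11558 and 13291 in male replicates 1, 3, 4 and 5. The sexes overlapped, and the highest and the lowest heart were both male. Slc38a3 encodes SNAT3, a glutamine and histidine carrier best known from liver, kidney and brain, and it ran from 5963 to 7057 over the 8 hearts (1228 ± 72.2 per kilobase). Slc38a10, a less studied member, ran from 6767 to 7444 (1111 ± 35.96 per kilobase). The lysosomal members were lower per kilobase: Slc38a7, which releases glutamine from lysosomes, had 287 ± 18.1, and Slc38a9, the arginine sensor that signals to mTORC1, had 70.4 ± 1.89 (SD, n = 8). Slc38a4, an imprinted gene in mouse that encodes SNAT4, had 242 ± 31.7 per kilobase. Slc38a1, which encodes SNAT1, had 106 ± 17.3, a value that depends on length since its merged exons span 17.2 kb and its longest transcript 7.27 kb. Slc38a6 had 44.3 ± 3.07, Slc38a11 15.6 ± 1.62 and the X-linked Slc38a5 7.02 ± 3.92 per kilobase. The 3 system A genes, Slc38a1, Slc38a2 and Slc38a4, summed to 1826 ± 136 per kilobase in females and 1880 ± 246 in males (SD, 4 hearts of each sex).

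The Slc6 family was carried by the taurine transporter. Slc6a6 (chromosome 6, 91684053 to 91759066, plus strand) had 8415, 8623, 8544 and 7043 normalized counts in female replicates 1 to 4 and 7202, 7051, 7198 and 6648 in male replicates 1, 3, 4 and 5. Female replicates 1 to 3 lay above every male heart, and female replicate 4 lay within the male range. At 898 ± 94.2 per kilobase it lay far above the next of its family, Slc6a17 with 42.98 ± 5.95, a vesicular carrier of neutral amino acids known from neurons. The glycine transporter gene Slc6a9 had 36.7 ± 4.05 per kilobase. The GABA carrier genes Slc6a11 and Slc6a13 had 7.45 and 8.03 per kilobase. The proline carrier gene Slc6a7 had 8.83 and the neutral amino acid carrier gene Slc6a15 2.49. Slc6a4, the serotonin transporter, had 5.88 ± 2.33, and Slc6a2, the noradrenaline transporter of sympathetic nerve endings, had 2.94 ± 0.702 per kilobase. These low members rested on few reads: Slc6a2 had 7 to 23 reads per heart and Slc6a4 15 to 40.

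Among the Slc7 genes the cationic carrier Slc7a1 led, and the light chains of Slc3a2 followed. Slc7a1 encodes CAT1, the main carrier of arginine and lysine in many tissues. Its normalized counts were 4165, 4586, 4768 and 4871 in female replicates 1 to 4 and 4044, 5377, 4494 and 4085 in male replicates 1, 3, 4 and 5. The sexes overlapped, with the highest heart and the lowest heart both male. Per kilobase it had 395 ± 39.6, against 45.1 ± 4.33 for Slc7a2 (CAT2) and 2.99 ± 1.55 for Slc7a3 (CAT3). Slc7a4, a relative of these carriers without a settled substrate, had 38.5 ± 3.14, and Slc7a14, a relative found in lysosomes, 1.62 ± 0.598 per kilobase.

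The heavy chain Slc3a2 varied little between hearts, with normalized counts of 2415, 2400, 2621 and 2503 in females and 2335, 2416, 2481 and 2502 in males. The sexes overlapped, with the highest heart female and the lowest male. Of its partner light chains, Slc7a7 and Slc7a6, which exchange cationic for neutral amino acids, had 202 ± 18.8 and 174 ± 7.47 per kilobase. Slc7a5 (LAT1) and Slc7a8 (LAT2), the carriers of large neutral amino acids such as leucine, had 83.8 ± 7.00 and 61.8 ± 6.22. Slc7a10 (Asc-1), a carrier of small neutral amino acids used as a surface marker of white fat cells, had 27.9 ± 22.9, and Slc7a11 had 1.07. The 6 light chains together came to 0.791 ± 0.0868 times the level per kilobase of Slc3a2 in females and 0.792 ± 0.0482 times in males (SD, 4 hearts of each sex).

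The Slc1 family was led by Slc1a5, which encodes ASCT2, an exchanger of glutamine and other neutral amino acids. Slc1a5 had normalized counts of 3121, 2193, 1996 and 2514 in females and 2270, 2022, 2216 and 2312 in males. Female replicate 1 was the highest of the 8 hearts and female replicate 3 the lowest. Per kilobase it had 559 ± 86.0, and its relative Slc1a4 (ASCT1) had 42.1 ± 5.07. The glutamate carriers known from brain and retina were low: Slc1a7 had 41.1 ± 5.42, Slc1a3 (GLAST) 31.0 ± 7.73, Slc1a1 (EAAC1) 16.0 ± 1.90 and Slc1a2 (GLT-1) 7.10 ± 0.777 per kilobase. Together the 4 summed to 95.3 per kilobase, 0.929% of the sum over all members. Exons of Slc1a1 overlap those of 4430402I18Rik on the opposite strand over 2631 bp. That gene had a mean of 746 normalized counts, against 132 for Slc1a1. Whether counting used strand is unknown, so reads from the pair may be mixed.

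Of the proton-coupled Slc36 genes, Slc36a2 led, and of the Slc43 genes, Slc43a3. Slc36a2 encodes PAT2, a carrier of glycine, alanine and proline. It had normalized counts of 2085, 1580, 1937 and 1988 in females and 1991, 1846, 2028 and 2241 in males, overlapping between the sexes. Per kilobase Slc36a2 had 603 ± 59.1, the lysosomal carrier Slc36a1 (PAT1) 181 ± 12 and Slc36a4 (PAT4) 137 ± 9.14. Slc43a3 encodes a carrier of purine nucleobases and not of amino acids. Slc43a3 had 4869, 4612, 4783 and 5194 in females and 5193, 4771, 4607 and 5775 in males, also overlapping. At 1115 ± 88.5 per kilobase it lay far above Slc43a2 (LAT4, 116 ± 13.3) and Slc43a1 (LAT3, 36.5 ± 5.59), which carry branched-chain amino acids and phenylalanine.

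Between the sexes, 0 of the 44 members passed in limma at a Benjamini-Hochberg adjusted p under 0.05 over all 17911 genes, where 1.16% of all genes passed (0.475% higher and 0.687% lower in females). At an unadjusted p under 0.05, 9 of 44 members (20.5%) stood beside 16.0% of all genes. Of these, 8 were higher in females, against a background of 7.84%, and 1 was lower, against 8.16%. edgeR's quasi-likelihood test and limma-voom also passed 0 members, with 10 and 11 at an unadjusted p under 0.05, beside 1.19% and 1.16% of all genes passing and 16.2% and 16.6% at an unadjusted p under 0.05. DESeq2 gave an adjusted p to 34 members and passed 2 of them, Slc38a1 and Slc6a6, both higher in females, beside 4.90% of all genes with an adjusted p (2.16% higher in females). The authors' deposited table lists the same 2 members at an adjusted p under 0.05, and its log2 fold changes differ from those of DESeq2 here by less than the second decimal. Both values come from the same reads and are not independent of each other. The median log2 fold change of the members, female minus male, was 0.04, beside 0.00 over all genes, and 29 of 44 were above 0, beside 50.9% of all genes.

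The intervals bound how large a difference these hearts could hide. For 32 of the 44 members the 95% interval from limma lay inside a 1.5-fold difference in either direction. The interval of Slc3a2 ran from -0.05 to 0.11 on the log2 scale, that of Slc38a10 from -0.02 to 0.12 and that of Slc38a3 from -0.14 to 0.09. Wide intervals belonged to members with few reads or uneven hearts. That of Slc7a10 ran from -0.17 to 2.71 and that of the X-linked Slc7a3 from -1.12 to 0.93.

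**Figure D2:**
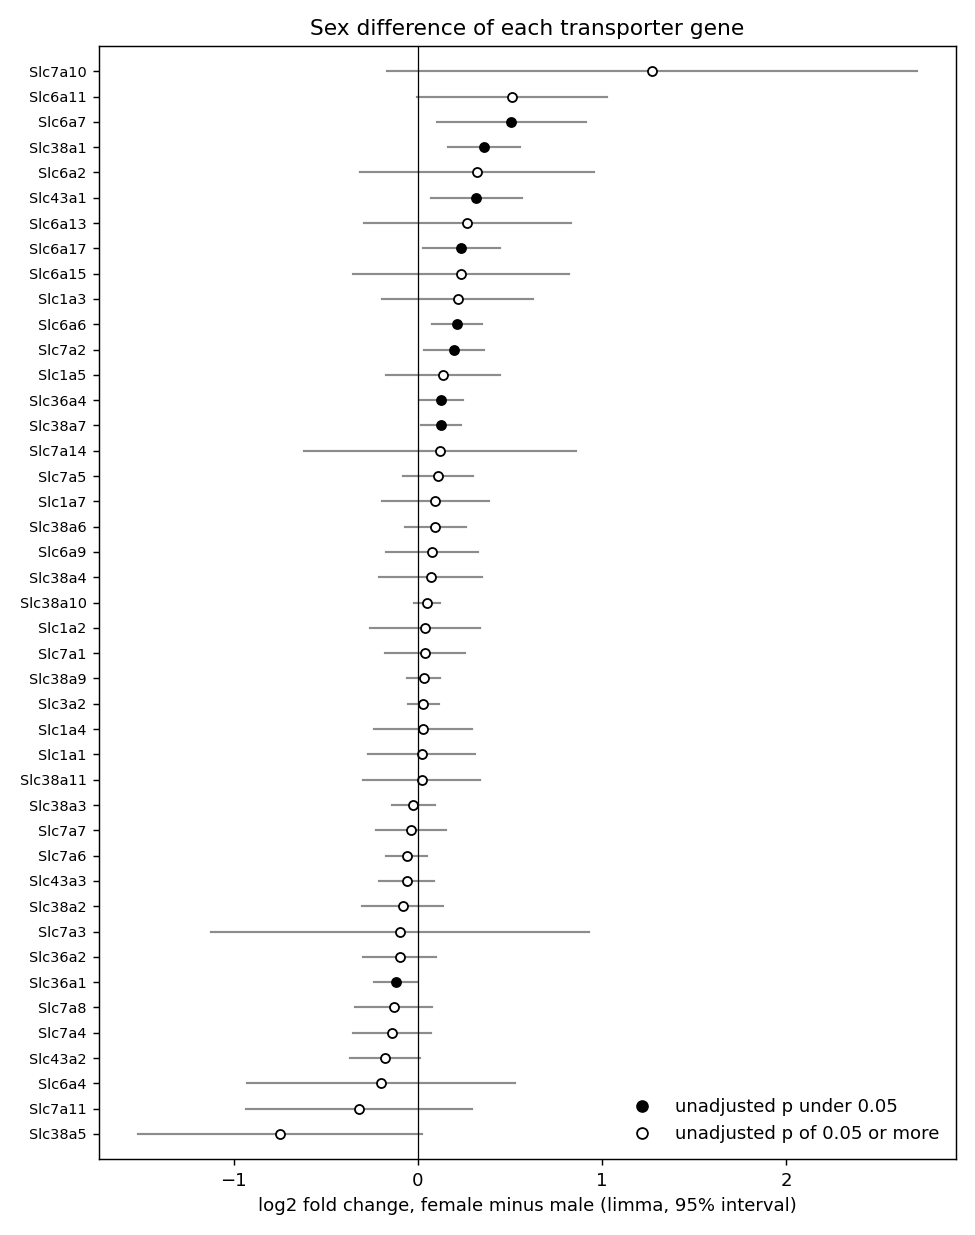
Points are log2 fold changes, female minus male, of 43 genes from the limma fit, with bars for the 95% interval; filled points have an unadjusted p under 0.05. Slc38a1 and Slc6a6 have filled points with intervals above 0, and 0 genes passed after adjustment over all genes.

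Slc38a1 had the smallest p among the members and was higher in every female heart than in every male heart. Its normalized counts were 2124, 1945, 1838 and 2325 in female replicates 1 to 4 and 1740, 1686, 1385 and 1612 in male replicates 1, 3, 4 and 5. The sexes did not overlap, as was the case for 3 of 44 members, all higher in females, and for 9.35% of all genes (4.52% higher in females). The means were 2058 ± 214 in females and 1606 ± 156 in males (SD, 4 hearts of each sex), a ratio of 1.28. The log2 fold change was 0.36 (SE 0.09, 95% interval 0.16 to 0.55, limma adjusted p = 0.091). DESeq2 gave an adjusted p = 0.00224 and edgeR's quasi-likelihood test an adjusted p = 0.0896, and over all alternatives the adjusted p ran from 0.00224 to 0.291. Slc38a1 lies at 96571418 to 96642913 on the minus strand of chromosome 15, 44.5 kb from Slc38a2, and Slc38a4 follows 295 kb beyond Slc38a2 on the same strand. The log2 fold changes of those neighbours were -0.08 (Slc38a2, limma adjusted p = 0.747) and 0.07 (Slc38a4, limma adjusted p = 0.843). The ratio of Slc38a1 to Slc38a2 ran from 0.151 to 0.180 in female hearts and from 0.106 to 0.124 in male hearts. That ratio was chosen after the values of Slc38a1 were seen and carries no test. The macrophage markers above also did not overlap between the sexes, in the opposite direction, and their part in this result was not tested.

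Slc6a6, the taurine transporter, had 8156 ± 747 normalized counts in females and 7025 ± 261 in males (SD, 4 hearts of each sex), a ratio of 1.16. Its log2 fold change was 0.21 (SE 0.06, 95% interval 0.08 to 0.35, limma adjusted p = 0.136). DESeq2 gave it an adjusted p = 0.0219. Leaving out each heart in turn gave log2 fold changes from 0.18 to 0.28 and limma adjusted p from 0.00575 to 0.291. The values of 0.28 and 0.00575 came without female replicate 4, the library with the fewest reads. That is the female heart within the male range, so leaving it out was bound to widen the difference. Over all alternatives tried the limma, edgeR, voom and DESeq2 adjusted p of Slc6a6 ran from 0.00575 to 0.321. Its exons overlap those of Gm44981 on the opposite strand over 117 bp, a gene with a mean of 10.6 normalized counts.

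The other members with small p were at lower levels. Slc43a1, the leucine carrier LAT3, had 236, 222, 242 and 224 in females and 232, 161, 186 and 169 in males. Male replicate 1 lay within the female range and the other 3 male hearts below it (log2 fold change 0.32, SE 0.11, limma adjusted p = 0.200). Slc6a7 had 37.8, 40.7, 30.9 and 34.1 in females and 28.4, 24.1, 25.6 and 21.7 in males. All female hearts were above all male hearts, on 18 to 42 reads per heart (log2 fold change 0.51, SE 0.19, limma adjusted p = 0.210). Slc7a2, a carrier of arginine, had 462, 409, 472 and 418 in females and 387, 391.5, 350 and 408 in males. These did not overlap either, by a narrow gap between female replicate 2 and male replicate 5 (log2 fold change 0.19, SE 0.07, limma adjusted p = 0.228). Exons of Slc7a2 overlap a long noncoding RNA gene, Gm26584, on the opposite strand over 635 bp, and reads from the pair may be mixed. No level of Gm26584 was available.

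The next 5 by p each had overlapping sexes. Slc38a7 had 1224, 1242, 1201 and 1295 in females and 1131, 1105, 1081 and 1233 in males (log2 fold change 0.13, limma adjusted p = 0.238). Slc6a17 had 541, 523, 450 and 402 in females and 408, 370, 442 and 399 in males (log2 fold change 0.24, limma adjusted p = 0.258). Every female heart of Slc38a7, and each of Slc6a17 except replicate 4, lay above the male median. Slc36a4 had 949, 969, 850 and 966 in females and 877, 827, 828 and 883 in males (log2 fold change 0.13, limma adjusted p = 0.276). Slc36a1 pointed the other way, with 916, 995, 989 and 999 in females and 1084, 1126, 973 and 1057 in males (log2 fold change -0.12, limma adjusted p = 0.297). Male replicate 4 lay within the female range and the other male hearts above it. Slc6a11 had 47.5, 48.5, 36.2 and 42.6 in females and 46.7, 20.7, 27.3 and 31.4 in males (log2 fold change 0.51, limma adjusted p = 0.314).

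**Figure D3:**
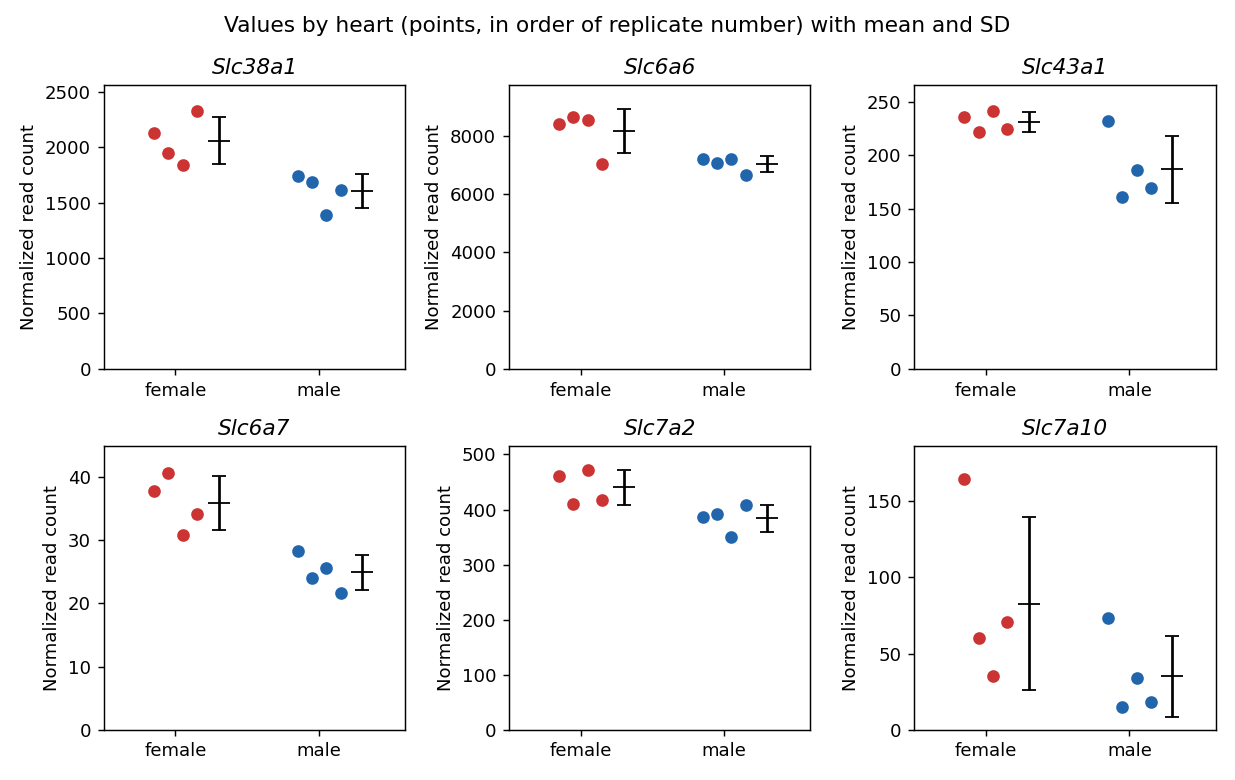
Normalized read counts (linear axes from 0) of 6 genes in each female (red) and male (blue) heart, in order of replicate number, with mean and SD in black. Slc38a1, Slc6a7 and Slc7a2 do not overlap between the sexes, female replicate 4 of Slc6a6 lies among the male hearts, and Slc7a10 is highest in female replicate 1.

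The 2 measured X-linked members were both near the low end of the table and did not pass. Slc38a5 encodes SNAT5, a glutamine carrier, and lies on chromosome X at 8271133 to 8280179. It had 13.6, 11.6, 8.52 and 9.74 in females and 10.1, 24.1, 14.5 and 33.8 in males. Male replicates 3 and 5 were the highest, and male replicate 1 lay among the females (log2 fold change -0.75, SE 0.35, limma adjusted p = 0.327, 8 to 28 reads per heart). Slc7a3 had 17.5, 7.76, 7.45 and 8.53 in females and 21.05, 3.44, 10.2 and 14.5 in males. Its highest and lowest hearts were both male (log2 fold change -0.10, limma adjusted p = 0.946, 4 to 23 reads per heart). The 95% interval of each reached past a 1.5-fold difference. Their within-sex coefficients of variation, pooled over the sexes, were 48.5% for Slc38a5 and 55.2% for Slc7a3, above the counting parts of 28.0% and 34.0%. For Slc38a5 it was 51.2% in males and 20.4% in females, the latter below the counting part.

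The make-up of the families was compared between the sexes, and 0 of 6 families passed the test. The share of the leading gene in its family's summed level per kilobase was 80.4% ± 1.26 in females and 79.9% ± 1.54 in males for Slc1a5, and 88.1% ± 0.867 against 87.8% ± 1.31 for Slc6a6 (SD, n = 4 each). For Slc7a1 it was 38.3% ± 3.20 against 38.1% ± 4.06, and for Slc36a2 64.7% ± 3.33 against 66.1% ± 2.14. For Slc38a2 it was 31.6% ± 1.64 against 33.5% ± 3.17, and for Slc43a3 88.0% ± 0.326 against 87.9% ± 1.63. The differences in percentage points ran from -1.82 (Slc38a2, two-sided exact permutation p = 0.343) to 0.509 (Slc1a5, exact permutation p = 0.629). The adjusted exact permutation p over the 6 families was 1 in each, and the smallest p this design allows is 0.0286. A single family at that smallest p would not have passed after adjustment over the 6. The test therefore cannot show that the make-up was the same in both sexes.

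Over the 8 hearts, Slc3a2 was compared with each of its 6 partner light chains on the log2 scale. With Slc7a5 the Pearson r was 0.75 (exact permutation p = 0.0323, adjusted over the 6 relations 0.194) and Spearman's rho 0.86 (exact permutation p = 0.0107, adjusted 0.0643). Without the 2 hearts farthest from the median of Slc3a2, female replicate 3 and male replicate 1, r was 0.60. Neither adjusted value passed 0.05. The other relations had r of -0.52 (Slc7a6), 0.07 (Slc7a7), -0.55 (Slc7a8), -0.32 (Slc7a10) and 0.40 (Slc7a11), with exact permutation p from 0.164 to 0.862. Spearman's rho was -0.55, -0.05, -0.33, -0.38 and 0.48 in the same order, with exact permutation p from 0.171 to 0.935. Without those 2 hearts r was -0.45, 0.70, -0.45, -0.25 and 0.61. The adjusted p of the 5 ran from 0.365 to 0.862 for r and from 0.486 to 0.935 for rho. Each sex has 4 hearts, too few for a value within a sex.

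How much a gene varied between hearts of the same sex was set beside what counting of its reads alone would give. For the 15 members with a mean of at least 1000 the within-sex coefficient of variation ran from 2.60% to 15.4% (median 8.18%), and the counting part from 0.875% to 3.15%. For the 15 with at least 100 and under 1000 it ran from 3.97% to 25.0% (median 9.91%), and for the 14 under 100 from 11.2% to 75.5% (median 25.3%, with a counting part of 20.9% at the median). Slc38a9 had a spread of 2.60% where counting gives 2.93%. As a ratio of spread to counting part, Slc38a2 was highest, with 10.7% against 0.875%, followed by Slc1a5 (15.4% against 2.09%) and Slc7a1 (10.8% against 1.495%).

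**Figure D4:**
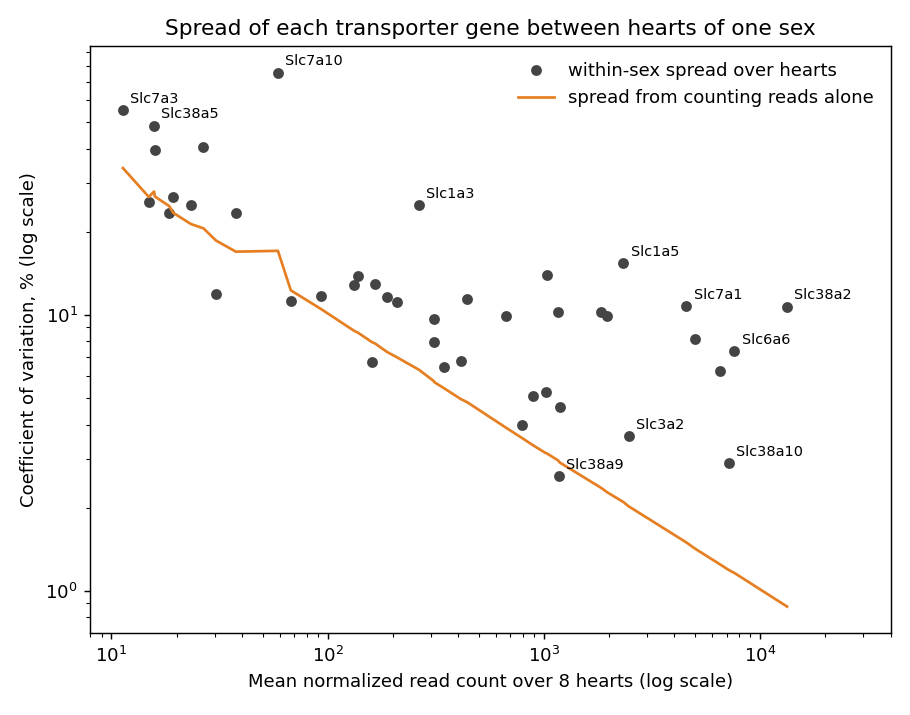
Each point is the within-sex coefficient of variation of 1 gene over the hearts, in percent, against its mean normalized count (both axes log); the orange line is the variation that counting reads alone would give. Slc7a10 at 75.5% and Slc38a2 at 10.7% lie far above the line, and Slc38a9 at 2.60% lies at it.

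Slc7a10 had the widest range of any member. Its normalized counts were 165, 60.1, 35.1 and 70.6 in females and 73.2, 14.6, 34.1 and 18.1 in males, an 11.3-fold range. Female replicate 1 was more than 2 times any other heart, and the sexes overlapped (log2 fold change 1.27, SE 0.62, limma adjusted p = 0.370). The 4 fat markers (Adipoq, Plin1, Cidec and Ucp1) were detected in every heart and summed to 4335, 986, 866 and 1680 in females and 1942, 2102, 1648 and 1522 in males. Female replicate 1 was again the highest. Male replicate 3, with the lowest Slc7a10, had the second highest sum of fat markers, and 714 of its 2102 came from Ucp1, the uncoupling protein of brown fat. Adipoq, Plin1 and Cidec, which white fat also expresses, were each highest in female replicate 1, at 1283, 1481 and 1294. In females each of these markers fell from replicate 1 to 4, 2 and 3, the order of Slc7a10. In males each fell from replicate 1 to 4, 3 and 5, while Slc7a10 fell from replicate 1 to 4, 5 and 3. Across the sexes the order was not kept. Male replicate 3 had 389, 577 and 422 of these markers with 14.6 of Slc7a10. Female replicate 2 had 307, 308 and 364 with 60.1. Slc1a5 and Slc1a3 were also highest in female replicate 1, Slc1a3 at 416 against 212 to 280 in the other hearts. The part of fat in these values was not tested. Exons of Slc7a10 also overlap those of Lrp3 on the opposite strand over 377 bp, and Lrp3 had a mean of 843 normalized counts, and reads from the pair may be mixed.

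Genes around the transporters were read from 5 lists, and 0 of their measured members passed in limma, beside 1.16% of all genes. At an unadjusted p under 0.05, where 16.0% of all genes stood, the lists ranged from 7.89% to 30.4% of their members. Of 38 amino acid sensing and mTORC1 genes 3 (7.89%) had such a p, below the share of all genes, with a list median of 0.01 on the log2 scale. Lamtor1, a subunit of the lysosomal Ragulator complex, had 3983 ± 101 in females and 4354 ± 123 in males (log2 fold change -0.13, limma adjusted p = 0.0864), Rragc a log2 fold change of -0.08 and Tfe3 of -0.10. Of 26 genes of the ATF4 and amino acid deprivation response 6 (23.1%, beside 16.0% of all genes) had an unadjusted p under 0.05 (median -0.03). Mthfd2, a mitochondrial folate enzyme gene, had 146 ± 7.81 against 205 ± 24.3 (log2 fold change -0.48, limma adjusted p = 0.0542). The regulator gene Atf4 had 3937 ± 144 against 4325 ± 210 (log2 fold change -0.14, limma adjusted p = 0.135) and Atf3 261 ± 43.3 against 436 ± 137 (log2 fold change -0.70, limma adjusted p = 0.161). Each of these 3 genes, named for their small p, was lower in every female heart than in every male heart, as were 4.82% of all genes. Among the other genes of this list at that unadjusted p, Eif2ak2 was lower (-0.14), while Eif2ak3 (0.17) and Chac1 (0.53) were higher in females. Of the 26 genes, 11 had a log2 fold change above 0.

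Of 23 genes of branched-chain amino acid breakdown 7 (30.4%, beside 16.0% of all genes) had an unadjusted p under 0.05 (median -0.02). Hibch, an enzyme gene of valine breakdown, had 4375 ± 159 against 4837 ± 98.3 (log2 fold change -0.15, limma adjusted p = 0.0658). Ppm1k, the phosphatase that activates the branched-chain ketoacid dehydrogenase, had a log2 fold change of 0.19 and Acad8 of -0.13. Among the other genes of this list at that unadjusted p, Bckdhb (0.10) was higher in females. Bckdha (-0.13), Hibadh (-0.07) and Mcee (-0.09) were lower. Of the 23 genes, 10 had a log2 fold change above 0. Of 19 genes of glutamate, glutamine and taurine enzymes 3 had an unadjusted p under 0.05 (median 0.02), and their share of 15.8% was near the 16.0% of all genes. They were Cad (0.15), the aspartate aminotransferase gene Got1 (0.10) and the alanine aminotransferase gene Gpt (-0.21). Of the taurine enzymes, Csad had 935 ± 81.1 in females and 890 ± 74.8 in males (log2 fold change 0.07, limma adjusted p = 0.696). Ado and Fmo1 had log2 fold changes of 0.03 and -0.05 (limma adjusted p = 0.740 and 0.698). Cdo1, the cysteine dioxygenase gene, had 636 ± 497 and 575 ± 86.0 (log2 fold change -0.11, limma adjusted p = 0.941), where the mean and the log2 value differ in sign and single female hearts ran from 325 to 1375. Of 23 genes listed as other carriers, not all of which carry amino acids, 3 had an unadjusted p under 0.05 (median 0.00). Their share of 13.0% was below the 16.0% of all genes. They were the lysosomal cysteine carrier gene Mfsd12 (0.14), the mitochondrial glutamate carrier gene Slc25a22 (0.23) and the carnitine carrier gene Slc22a5 (0.13). DESeq2, which called 2.73% of all genes with an adjusted p lower in females, passed Lamtor1, Mthfd2, Atf3 and Hibch, all lower in females.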

How the data were processed

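RNA-seq of 8 single whole hearts (4 female, 4 male) was read from 1 table of all genes deposited by the authors, on mm10 per the submitters' processing notes. For the aligner, the counter and the strand setting, nothing is stated (not given in the sources used here). The deposited values are normalized counts, a signal that the authors made by dividing read counts by a size factor per heart. Multiplying back gave whole reads (within 0.001) for 100% of values, with 51699331 to 75742388 reads per heart, while the labels speak of more than 80 M (1e6) reads. The authors' deposited table also holds log2 fold changes and p-values, which were only compared with DESeq2 run on the recovered reads.

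Each value plus a pseudocount of 1 was put on the log2 scale and tested, female minus male, with limma 3.58.1 (trend and robust) in R 4.3.3 over all 17911 genes, without a filter and with Benjamini-Hochberg adjustment. Fold changes on this scale understate those of low genes. Alternatives were a pseudocount of 0.1 or 5, a filter at 1 read per M reads in 4 hearts, limma without the robust option, limma-voom, edgeR 4.0.16 quasi-likelihood, DESeq2 1.42.0, total reads as a covariate, number blocks and leaving out each heart. The pipeline was tested on simulated data. Lengths for values per kilobase are merged exons of GENCODE release 21 for mouse. Exact permutation tests over the hearts were two-sided.

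The members and lists were chosen with earlier results of these data known. Values per heart are given for the highest member of each family, the 10 members with the smallest limma p and members on chromosome X, and for each list the 3 genes with the smallest p. One member is counted but its values are not reported here. Slc7a10, Slc3a2, Slc1a3, Eif2ak2, Eif2ak3, Chac1, the taurine enzymes and the ratio of Slc38a1 to Slc38a2 were added after their values were seen. So were Bckdha, Bckdhb, Hibadh and Mcee.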

Additional observations from a re-analysis of the deposited data

Results flagged for a closer look

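In 4 of 88 groups of 4 hearts (44 genes in each sex), a single heart stood apart from the other 3 by more than the 95% critical value of Dixon's test, where chance gives about 1 in 20. All 4 were in female hearts. Slc6a6, the taurine transporter, was 7043 in female replicate 4 and 8415 to 8623 in the other females (gap over range 0.868), and that library also had the fewest reads. Slc36a1, the lysosomal proton-coupled carrier, was 916 in female replicate 1 and 989 to 999 in the others (0.884). Slc36a4 was 850 in female replicate 3 and 949 to 969 in the others (0.831). Slc7a3 was 17.5 in female replicate 1 and 7.45 to 8.53 in the others (0.893), on few reads.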

How the results depend on the processing

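Of the 44 transporter genes, 30 kept their direction under all alternatives run for them (at most 20 each) and 14 turned under at least 1. The number called higher in females was 0 in limma, 2 with DESeq2 (Slc38a1 and Slc6a6), 1 with total reads as a covariate (Slc6a6, log2 fold change 0.29, adjusted p = 0.0156) and 1 with the replicate block (Slc7a10, 1.13, limma adjusted p = 0.0452), and the number called lower was 0 throughout. The cause was not tested. Leaving out hearts in turn gave 0 to 1, the 1 being Slc6a6 without female replicate 4.

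Hearts of both sexes share title numbers 1, 3 and 4 only. Their deviations correlated at 0.193, -0.07 and -0.09, and by library code numbers 1, 3 and 5 at 0.193, -0.07 and 0.193. For number 1 and for code number 5, the male heart of the same number had the highest correlation among the male hearts. Whether the numbers pair the hearts is not known, and the main fit treated them as unpaired. With the replicate block, which uses 6 hearts, the log2 fold changes that turned were those of Slc7a7 (0.0259), Slc1a2 (-0.0681), Slc38a3 (0.00599), Slc36a2 (0.0357), Slc6a4 (0.0431), Slc43a3 (0.0279), Slc7a11 (0.00917), Slc7a3 (0.145) and Slc7a1 (-0.00492). The same 6 hearts without the block were an alternative chosen after seeing the data. They had to give these values too, since each number holds 1 heart of each sex, so this is no separate check. With the library code block Slc7a7 (0.0640), Slc38a3 (0.0483), Slc38a4 (-0.0252) and Slc1a1 (-0.0203) turned, and with total reads as a covariate Slc1a1 (-0.0599). For Slc3a2 and Slc7a7 the Pearson r on residuals on total reads was -0.0120.

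Of the lists, DESeq2 called 1 mTORC1 gene, 2 ATF4 response genes and 1 branched-chain gene lower in females, and the filter called 1 ATF4 response gene lower. The ATF4 response had 1 gene higher with the replicate block and 1 with the same 6 hearts unblocked, which also called 1 other carrier lower.

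Leaving out hearts in turn gave log2 fold changes of -0.116 to 0.0202 (Slc7a7), -0.0488 to 0.105 (Slc1a2), -0.0606 to 0.0132 (Slc38a3), -0.0701 to 0.0868 (Slc1a4), -0.534 to 0.0620 (Slc6a4), -0.0247 to 0.164 (Slc38a4), -0.0865 to 0.0881 (Slc1a1), -0.106 to 0.00273 (Slc43a3), -0.551 to 0.219 (Slc7a3), -0.0101 to 0.127 (Slc7a1), -0.0320 to 0.0997 (Slc38a11) and -0.111 to 0.295 (Slc7a14). The calls were 0 to 1 for the ATF4 response higher (1 without male replicate 5), 0 to 1 for it lower (1 without male replicate 1) and 0 to 1 for other carriers lower (1 without male replicate 5). The share differences were -0.0412 to 1.18 (Slc1a5), -0.225 to 0.797 (Slc6a6), -0.935 to 2.13 (Slc7a1), -2.32 to 0.229 (Slc36a2) and -0.222 to 0.892 percentage points (Slc43a3). The r of Slc3a2 was -0.0996 to 0.336 with Slc7a7 and -0.832 to 0.110 with Slc7a8. The 14 members under 100 normalized counts had 95% intervals that reached 0.60 to either side on the log2 scale at the median, against 0.14 for the 18 at 500 or more, which limits what could be seen for them.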

Other observations

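Several members lie near one another in the genome (mm10), and the pairs given here differed in level. Whether other genes lie between them was not examined. Slc36a2 and Slc36a1 lie 19.3 kb apart on opposite strands of chromosome 11, with 603 and 181 normalized counts per kilobase. Slc43a1 and Slc43a3 lie 73.0 kb apart on the plus strand of chromosome 2, with 36.5 and 1115, and Slc7a7 and Slc7a8 lie 304 kb apart on chromosome 14, with 202 and 61.8.

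Of the 44 members, 10 had their highest value in female replicate 1, where 11.3% of all genes had theirs. They were Slc1a3, Slc1a4, Slc1a5, Slc38a10, Slc6a13, Slc6a15, Slc6a17, Slc6a2, Slc7a10 and Slc7a14. No heart had more such members, and the other hearts had from 3 to 7. Slc38a10 led by little, with 7444 normalized counts in female replicate 1 and 7305 in female replicate 3. The summed fat markers were also highest in female replicate 1, and whether fat had a part in these values was not tested. Exons of further members overlap a gene on the opposite strand, among them Slc7a7 with Oxa1l (232 bp), Slc7a4 with P2rx6 (554 bp), Slc43a2 with Gm45606 (922 bp) and Slc38a10 with Gm11769 (367 bp), and reads of such pairs cannot be told apart where the counting did not use strand.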
